A study of Mus musculus with 9 samples.

Results

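The cathepsins and lysosomal proteases considered here are 10 genes of 54532 in the deposited tables, matched by gene symbol, each of them to a single row. They are the aspartic protease gene Ctsd, the cysteine cathepsin genes Ctsb, Ctsl, Ctsk, Ctsz, Ctsc and Ctsh, the serine protease genes Ctsa and Tpp1, and Lgmn, which encodes the asparaginyl endopeptidase legumain. Poly A RNA was measured in 9 libraries of the mouse preadipocyte line 3T3-L1, with n = 3 in each of 3 groups. Undifferentiated cells were kept in medium with calf serum at confluence for 3 days and received no differentiation medium. Differentiated cells were then stimulated with insulin at 10 μg/mL, rosiglitazone at 1 μM, the phosphodiesterase inhibitor IBMX at 0.5 mM and dexamethasone at 1 μM in medium with fetal bovine serum, added arginine and 800 μM added lysine. Lysfree cells received the same agents, serum and arginine with 0 μM lysine added, and by the study's own measurement their medium still held traces of lysine. The line is a single established line in culture, so no animals were compared. Against Undifferentiated the hormones, the serum and the base medium changed together and cannot be told apart. RNA was taken after the differentiation period, which the paper's medium measurements put at 3 days. The paper's text does not say when Undifferentiated cells were collected, so time in culture may differ as well.

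Lysosomal proteases are made as inactive proenzymes, carried to the lysosome mainly by mannose 6-phosphate receptors and activated at the acid pH that the vacuolar proton pump maintains. There they break down proteins delivered by endocytosis and autophagy and release free amino acids, lysine among them. Many genes of the organelle carry E-box-like elements near their start that the transcription factors TFEB and TFE3 can bind. In adipose tissue, cathepsins are also known as secreted enzymes that act on the extracellular matrix, which preadipocytes remodel as they differentiate.

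Promoter windows of 300 bases, from 250 bases before to 50 after an annotated start, were read from RefSeq on GRCm38.p6. Of the 10 genes, 8 matched, with 10 windows, and Ctsb and Ctsh did not. Each window was searched for the E-box core CACGTG, for the longer TCACGTGA that contains it, and for the GC box GGGCGG, on both strands. The E-box core occurred in 4 of the 10 windows (Ctsa, Ctsd, Ctsl, Lgmn), against 7.15% of all 32851 windows in the same source. For Ctsa, Ctsl and Lgmn the window with the core lies wholly within the annotated gene, so its start is an internal one. Lgmn has a pair of windows, and the one over the 5′ end of the gene held 0 cores. TCACGTGA occurred in 2 of the 8 genes, Ctsa and Ctsd, against 1.12% of all 27025 genes with a window, and the GC box in 4 of the 8 (Ctsc, Ctsd, Ctsz, Lgmn), against 38.2% of genes. By gene the core occurred in 50% here and in 8.09% of all genes. E-box matches were also frequent in most other lysosomal lists, so they are not particular to these proteases. The core occurred in 38.5% of sorting, 33.3% of proton pump, 29.4% of membrane and 28.6% of other peptidase genes. It occurred in 25% of the genes for glycosidases, lipases, sulfatases and a few other enzymes. TCACGTGA occurred in 23.1%, 25%, 23.5%, 14.3% and 4.17% of these, and both in 0% of cathepsin inhibitor and transcription factor genes. These matches describe letters and are not evidence of binding. The windows of 5 genes are shown, in lower case with E-box core, TCACGTGA and GC box matches in capitals, each as 1 run from 5′ to 3′ on the strand of the gene. Ctsa and Ctsd are shown for TCACGTGA, Ctsl and Ctsk because they fell most in Differentiated cells, and Ctsc because it alone rose there. Ctsa has a pair of windows, and the one with matches is given.
Ctsa, chr2:164833523-164833822, plus strand: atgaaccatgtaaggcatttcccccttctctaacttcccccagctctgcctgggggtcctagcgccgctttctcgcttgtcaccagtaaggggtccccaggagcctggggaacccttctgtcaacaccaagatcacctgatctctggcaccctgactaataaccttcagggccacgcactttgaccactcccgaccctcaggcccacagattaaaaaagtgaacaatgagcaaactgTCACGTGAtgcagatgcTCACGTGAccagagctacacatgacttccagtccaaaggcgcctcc
Ctsd, chr7:142387778-142388077, minus strand: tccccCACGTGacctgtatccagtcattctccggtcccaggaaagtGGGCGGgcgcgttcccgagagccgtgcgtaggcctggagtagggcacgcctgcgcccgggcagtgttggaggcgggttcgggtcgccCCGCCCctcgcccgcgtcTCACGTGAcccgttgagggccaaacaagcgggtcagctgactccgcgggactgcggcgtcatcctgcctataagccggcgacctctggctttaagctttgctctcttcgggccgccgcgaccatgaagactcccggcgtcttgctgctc
Ctsl, chr13:64370471-64370770, minus strand: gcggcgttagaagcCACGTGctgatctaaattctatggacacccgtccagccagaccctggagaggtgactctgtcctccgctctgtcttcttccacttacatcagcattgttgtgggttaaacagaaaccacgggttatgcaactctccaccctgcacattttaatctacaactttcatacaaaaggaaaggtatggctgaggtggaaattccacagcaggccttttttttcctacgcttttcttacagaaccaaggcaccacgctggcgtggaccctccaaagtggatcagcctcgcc
Ctsk, chr3:95498960-95499259, plus strand: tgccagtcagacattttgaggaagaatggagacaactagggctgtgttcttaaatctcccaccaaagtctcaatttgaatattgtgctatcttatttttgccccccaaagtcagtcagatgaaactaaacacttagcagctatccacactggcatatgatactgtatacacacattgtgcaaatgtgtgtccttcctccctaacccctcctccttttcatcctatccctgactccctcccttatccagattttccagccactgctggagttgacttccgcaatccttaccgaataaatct
Ctsc, chr7:88277835-88278134, plus strand: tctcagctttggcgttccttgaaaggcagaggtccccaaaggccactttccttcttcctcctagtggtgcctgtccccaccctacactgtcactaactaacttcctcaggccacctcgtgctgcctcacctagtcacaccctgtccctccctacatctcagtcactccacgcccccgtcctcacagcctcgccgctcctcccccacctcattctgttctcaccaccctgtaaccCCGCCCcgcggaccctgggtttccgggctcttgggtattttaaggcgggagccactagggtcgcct
In the Ctsa window the matches of TCACGTGA fell on either side of the start, with the core beginning 12 bases before it and at base 6 after it. In the Ctsd window the core began 245 and 98 bases before the start, the latter within TCACGTGA, and the GC boxes 204 and 117 bases before it. The Ctsl core lay 236 bases before the start, and the Ctsk window held none of the 3 motifs. The Ctsc window held a single GC box, 16 bases before the start.

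Total counts ranged from 15880144 to 21806693 per library. Lysfree 1 stood apart from Lysfree 2 and 3, with a chi-square of counts over genes of 39.6 and 40.7 per degree of freedom against 2.67 between the latter. It was the highest of the Lysfree libraries for Ctsb and Tpp1 and the lowest for Ctsa, Ctsc, Ctsd, Ctsk, Ctsl, Ctsz and Lgmn, so values without it are given beside the Lysfree results. Levels are the deposited FPKM, fragments scaled to gene length and library total. Orders and shares between genes therefore depend on the gene lengths used, which ran from 1441 bases for Ctsz to 6489 for Ctsl. Differences are log2 fold changes fitted to the counts with edgeR, with p values adjusted over all genes tested, and a differentially expressed gene (DEG) had an adjusted p under 0.05 and at least a 2-fold change. No source used here gives the counting strand, so reads of genes that overlap on opposite strands cannot be told apart.

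In Differentiated cells the protease genes were lower almost throughout. Compared with Undifferentiated cells, 6 of the 10 were DEGs lower (Ctsa, Ctsh, Ctsk, Ctsl, Ctsz, Tpp1), where 11.4% of the 24402 genes tested were, and Ctsc alone was a DEG higher, where 10.4% were. Ctsb, Ctsd and Lgmn also fell, by less than 2-fold, so that 10 of 10 passed the adjusted p in either direction against 46.1% of all genes. All 10 had FPKM ranges that did not overlap between the groups, against 50.9% of all genes. Without lysine the direction turned. In Lysfree vs Differentiated cells 6 genes were DEGs higher (Ctsa, Ctsb, Ctsk, Ctsl, Lgmn, Tpp1), against 8.14% of 24130 genes, and Ctsc was the only DEG lower, against 10.5%. Ctsd and Ctsz rose by less than 2-fold and Ctsh did not pass the test, so that 9 of 10 passed the adjusted p against 38.5% of all genes, and all 10 had ranges that did not overlap, against 46.6%. For 8 of the 10 genes the difference of Lysfree from Undifferentiated cells was smaller than that from Differentiated cells, and for Ctsc and Ctsh it was larger. In Lysfree vs Undifferentiated cells Ctsc was the only DEG higher, against 5.52% of 23994 genes, and Ctsh the only DEG lower, against 8.76%. The adjusted p was passed by 7 of the 10, against 35.1%, and 8 had ranges that did not overlap, against 43.5%. These shares are over all genes tested, and genes passing edgeR's expression filter passed the adjusted p more often. Of these, 5174 of 13869 rose and 5235 fell in Differentiated vs Undifferentiated. In Lysfree vs Differentiated 4518 of 13617 rose and 4088 fell, and in Lysfree vs Undifferentiated 4158 of 13648 rose and 3794 fell. Beside these the counts of 10, 9 and 7 stand out less. The median log2 fold change of the 10 genes was -1.42 in Differentiated vs Undifferentiated, 1.14 in Lysfree vs Differentiated and 0.18 in Lysfree vs Undifferentiated, beside 0.02, -0.06 and -0.02 over all genes tested. The comparisons share their groups, so the turn of direction is given as each comparison's own values and not as independent results.

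**Figure D1:**
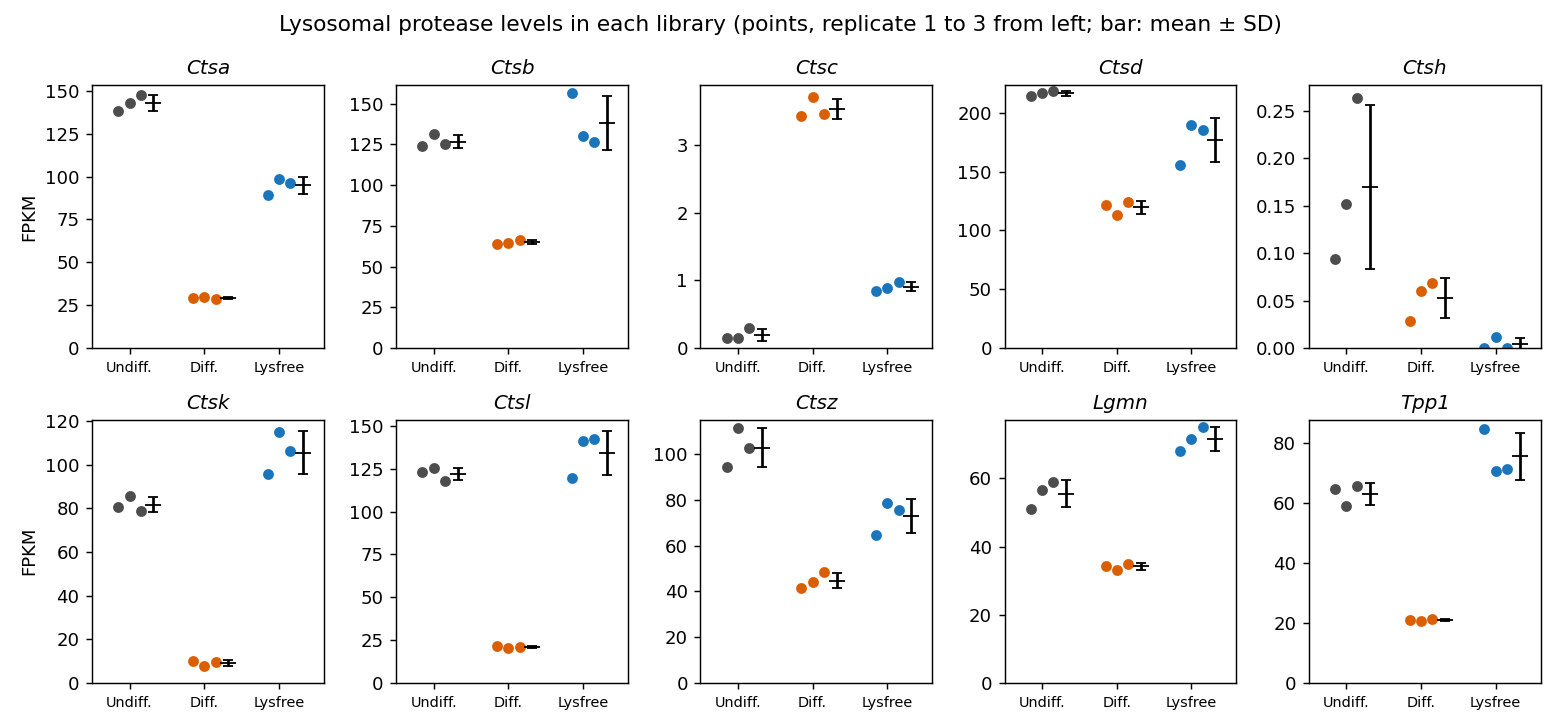
FPKM of each protease gene (vertical axis, separate scale per gene, from 0) in the 3 Undifferentiated, 3 Differentiated and 3 Lysfree libraries; points are libraries 1 to 3 from left to right and the bar is the mean ± SD. For 8 genes all Differentiated points lie below those of both other groups, Ctsc is the reverse with Differentiated points at 3.43 to 3.71 FPKM, and Ctsh is near 0 throughout.

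Ctsd (chr7:142375911-142388038, minus strand) encodes cathepsin D, the main aspartic endopeptidase of the lysosome. It was at 215, 217 and 218 FPKM in Undifferentiated, 121, 113 and 124 in Differentiated and 156, 189.8 and 186 in Lysfree libraries. The 3 groups did not overlap, and Lysfree 1 was the lowest of its group. By mean FPKM Ctsd was the highest of the 10 genes in each group. Before scaling to length, 6051 bases for Ctsb and 2351 for Ctsd, Ctsb had more counts in every library. The change of Ctsd was among the smallest. It fell in Differentiated cells (log2 fold change -0.88, SE 0.0513, adjusted p = 4.54e-65) and was higher in Lysfree than in Differentiated cells (log2 fold change 0.63, SE 0.0921, adjusted p = 8.08e-06). The difference between Lysfree and Undifferentiated cells did not pass the test (log2 fold change -0.24, SE 0.0977, adjusted p = 0.0529, 95% interval -0.44 to -0.04). That last difference passed without Lysfree 1 (adjusted p = 0.00255), although it was then smaller, at -0.18. Over all alternatives its adjusted p ranged from 0.00255 to 0.189. The annotated neighbour Gm49369 shares 808 exonic bases with Ctsd on the same strand and had at most 1 count in any library.

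Among the cysteine cathepsins, Ctsb, Ctsl and Ctsk encode endopeptidases of broad specificity, and cathepsin K is best known for the breakdown of collagen by osteoclasts. Ctsk (chr3:95499256-95509362, plus strand) was at 80.5, 85.8 and 78.8 FPKM in Undifferentiated libraries, 10.1, 7.78 and 9.38 in Differentiated and 95.5, 115 and 106 in Lysfree. The highest Differentiated library was far below the lowest of either other group. This was the largest fall of the 10 genes in Differentiated cells, 9.20-fold (log2 fold change -3.20, SE 0.0766, adjusted p below what the software can represent), and the largest rise in Lysfree vs Differentiated cells, 12.2-fold (log2 fold change 3.60, SE 0.121, adjusted p = 1.51e-15). Lysfree cells were also above Undifferentiated cells, by less than 2-fold (log2 fold change 0.42, SE 0.102, adjusted p = 0.00117). Without Lysfree 1 these last differences were 3.66 and 0.46. Of the osteoclast markers, Calcr, Ocstamp and Dcstamp had at most 3 counts in every library. The 6 marker genes summed to between 2.00 and 3.48 FPKM over the 9 libraries. Most of this was Nfatc1, at 2.25 ± 0.330 FPKM in Undifferentiated, 2.98 ± 0.0466 in Differentiated and 2.13 ± 0.222 in Lysfree. Acp5 had 3 to 5 counts in Undifferentiated, 3 to 9 in Differentiated and 0 in Lysfree libraries, and was a DEG lower in Lysfree cells against both.

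Ctsl (chr13:64359337-64370890, minus strand) took a similar course. Its level was 123, 125 and 118 FPKM in Undifferentiated, 21.6, 20.6 and 20.8 in Differentiated and 119.6, 141 and 143 in Lysfree libraries. Differentiated libraries were lowest with little spread, and the ranges of the other two groups overlapped. Ctsl fell 5.92-fold in Differentiated cells (log2 fold change -2.57, SE 0.0535, adjusted p below what the software can represent) and was 6.69-fold higher in Lysfree than in Differentiated cells (log2 fold change 2.74, SE 0.0931, adjusted p = 1.8e-15, 2.80 without Lysfree 1). The difference between Lysfree and Undifferentiated cells did not pass the test (log2 fold change 0.19, SE 0.0945, adjusted p = 0.136, 95% interval -0.01 to 0.38). Without Lysfree 1 it was 0.24 and passed, with an adjusted p of 1.07e-05. Adjusted p fell for most protease genes in that fit, so the change of call is not particular to Ctsl. An antisense gene, Gm47123, overlaps 1742 exonic bases of Ctsl and a pseudogene, Gm49230, lies within its exons on the same strand, and both had 0 counts in every library.

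Ctsb (chr14:63122462-63145923, plus strand) changed less. It was at 124, 131 and 125 FPKM in Undifferentiated, 64.1, 64.8 and 66.5 in Differentiated and 157, 131 and 127 in Lysfree libraries. Differentiated libraries lay apart from both other groups, while Undifferentiated and Lysfree overlapped. The fall in Differentiated cells was 1.98-fold (log2 fold change -0.99, SE 0.0495, adjusted p = 5.4e-87), just short of the DEG threshold, and Lysfree cells were 2.22-fold above Differentiated cells (log2 fold change 1.15, SE 0.0873, adjusted p = 6.21e-10, 1.03 without Lysfree 1). Lysfree and Undifferentiated cells could not be distinguished (log2 fold change 0.17, SE 0.0950, adjusted p = 0.186, 95% interval -0.02 to 0.36), and without Lysfree 1 the value was 0.04. Fdft1, which encodes squalene synthase, shares 774 exonic bases with Ctsb on the opposite strand and moved the other way, from 8.93 ± 0.376 FPKM in Undifferentiated to 54.3 ± 2.69 in Differentiated and 4.39 ± 0.470 in Lysfree cells. Its part in the Ctsb values was not tested.

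Ctsz (chr2:174427493-174439039, minus strand) encodes cathepsin Z, a carboxypeptidase. Its level was 94.5, 112 and 103 FPKM in Undifferentiated, 41.6, 44.3 and 48.3 in Differentiated and 64.5, 78.7 and 75.6 in Lysfree libraries. The 3 groups did not overlap, with Lysfree between the others. Ctsz fell in Differentiated cells (log2 fold change -1.23, SE 0.0611, adjusted p = 2.08e-88), and in Lysfree cells it was above Differentiated (log2 fold change 0.77, SE 0.104, adjusted p = 2.66e-06, 0.83 without Lysfree 1) and below Undifferentiated (log2 fold change -0.45, SE 0.105, adjusted p = 0.000791, -0.39 without Lysfree 1). Nelfcd overlaps 10 exonic bases of it on the opposite strand.

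Ctsc (chr7:88278085-88310888, plus strand), which encodes the dipeptidyl peptidase cathepsin C, known for activating the serine proteases of immune cells, went against the other genes. It was at 0.146, 0.149 and 0.301 FPKM (18, 19 and 28 counts) in Undifferentiated, 3.43, 3.71 and 3.46 (308, 401 and 325 counts) in Differentiated and 0.843, 0.894 and 0.976 (86, 99 and 110 counts) in Lysfree libraries. The groups did not overlap and Differentiated was highest, but even there Ctsc was below each of the 8 abundant genes, of which Ctsk was the nearest at 7.78 to 10.1 FPKM. It rose 18.2-fold in Differentiated cells (log2 fold change 4.18, SE 0.170, adjusted p = 1.46e-132), was 4.82-fold above Undifferentiated in Lysfree cells (log2 fold change 2.27, SE 0.277, adjusted p = 3.01e-08) and 3.73-fold lower in Lysfree than in Differentiated cells (log2 fold change -1.90, SE 0.146, adjusted p = 7.41e-10). Without Lysfree 1 the Lysfree values were 2.30 and -1.87. Without Undifferentiated 3, which had the most counts of its group, the rise in Differentiated cells was 4.56.

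Ctsh (chr9:90054152-90076089, plus strand), for the aminopeptidase cathepsin H, was barely detected. Its counts were 9, 15 and 19 in Undifferentiated, 2, 5 and 5 in Differentiated and 0, 1 and 0 in Lysfree libraries, or at most 0.264 FPKM. The groups did not overlap, and Undifferentiated was highest. The fall in Differentiated cells passed the test (log2 fold change -1.65, SE 0.589, adjusted p = 0.0124), although not without Undifferentiated 3 (adjusted p = 0.163), without Differentiated 1 (0.0633) or with DESeq2 (0.0531). Over all alternatives that adjusted p ranged from 0.00351 to 0.163. Lysfree libraries were at or under the floor of 3 counts, so by group means Ctsh was at least 4.5-fold lower there than in Undifferentiated cells (adjusted p = 7.69e-05). Undifferentiated 1, with 9 counts, lay closer to the floor, so this bound does not hold for each library. With Lysfree set at the floor the difference from Differentiated cells was 1.33-fold. Differentiated 1, with 2 counts, was itself under the floor, so that value is not a firm bound. The test was not passed (adjusted p = 0.0529, 0.0187 to 0.168 over the alternatives, 0.11 without Lysfree 1). The floor covers counting error only, while standard errors and intervals come from the fit and include the spread between libraries. In Differentiated vs Undifferentiated that spread was pooled over genes.

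The serine proteases differ in mechanism, as Ctsa encodes a carboxypeptidase that also protects the glycosidases Neu1 and Glb1 in a complex, and Tpp1 a tripeptidyl peptidase whose loss causes a neuronal ceroid lipofuscinosis. Ctsa (chr2:164832873-164841032, plus strand) was at 138, 143 and 147 FPKM in Undifferentiated, 29.2, 29.9 and 28.9 in Differentiated and 89.5, 98.5 and 96.4 in Lysfree libraries. No groups overlapped, and Lysfree lay between the others. Ctsa fell 4.96-fold in Differentiated cells (log2 fold change -2.31, SE 0.0537, adjusted p below what the software can represent), was 3.38-fold higher in Lysfree than in Differentiated cells (log2 fold change 1.76, SE 0.0862, adjusted p = 5.71e-13) and stayed below Undifferentiated (log2 fold change -0.54, SE 0.0932, adjusted p = 1.25e-05). Without Lysfree 1 the Lysfree values were 1.78 and -0.53. Its partner Neu1 was at 27.2 ± 1.53 FPKM in Undifferentiated, 8.08 ± 0.577 in Differentiated and 27.3 ± 2.85 in Lysfree, and Glb1 at 20.0 ± 0.721 FPKM in Undifferentiated, 9.03 ± 0.574 in Differentiated and 10.2 ± 0.351 in Lysfree. Neu1 was a DEG in the same comparisons as Ctsa (-1.78 in Differentiated vs Undifferentiated, 1.82 in Lysfree vs Differentiated), while Glb1 fell in Differentiated cells (-1.17) and did not pass the test between Lysfree and Differentiated (log2 fold change 0.24, adjusted p = 0.104). Pltp shares 495 exonic bases with Ctsa on the opposite strand and was at 82.9 ± 1.99, 14.7 ± 0.747 and 27.1 ± 0.479 FPKM in Undifferentiated, Differentiated and Lysfree cells, moving with Ctsa. Its part in the Ctsa values was not tested.

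Tpp1 (chr7:105744811-105752235, minus strand) was at 64.7, 58.9 and 65.5 FPKM in Undifferentiated, 21.0, 20.7 and 21.2 in Differentiated and 84.6, 70.7 and 71.4 in Lysfree libraries. The groups did not overlap, and Lysfree was highest. Tpp1 fell 3.07-fold in Differentiated cells (log2 fold change -1.62, SE 0.0557, adjusted p = 5.87e-183) and was 3.77-fold higher in Lysfree than in Differentiated cells (log2 fold change 1.92, SE 0.0918, adjusted p = 3.89e-13, 1.81 without Lysfree 1). Lysfree was slightly above Undifferentiated (log2 fold change 0.31, SE 0.0982, adjusted p = 0.0125), a difference of 0.20 without Lysfree 1 that lost its call without Undifferentiated 2 (adjusted p = 0.0696) or Undifferentiated 3 (0.0542), with adjusted p from 0.00169 to 0.0906 over the alternatives.

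Lgmn (chr12:102394084-102439813, minus strand) encodes legumain, which cuts after asparagine and can process other cathepsins. Its level was 51.1, 56.7 and 58.9 FPKM in Undifferentiated, 34.3, 33.2 and 35.0 in Differentiated and 68.0, 71.6 and 75.2 in Lysfree libraries. All Lysfree libraries were above all Undifferentiated ones, which were above all Differentiated ones. Lgmn had the smallest fall in Differentiated cells (log2 fold change -0.73, SE 0.0606, adjusted p = 2.74e-32), was 2.19-fold higher in Lysfree than in Differentiated cells (log2 fold change 1.13, SE 0.0898, adjusted p = 1.19e-09) and higher than in Undifferentiated cells by less than 2-fold (log2 fold change 0.41, SE 0.0998, adjusted p = 0.00104). Without Lysfree 1 the Lysfree values were 1.15 and 0.43.

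**Figure D2:**
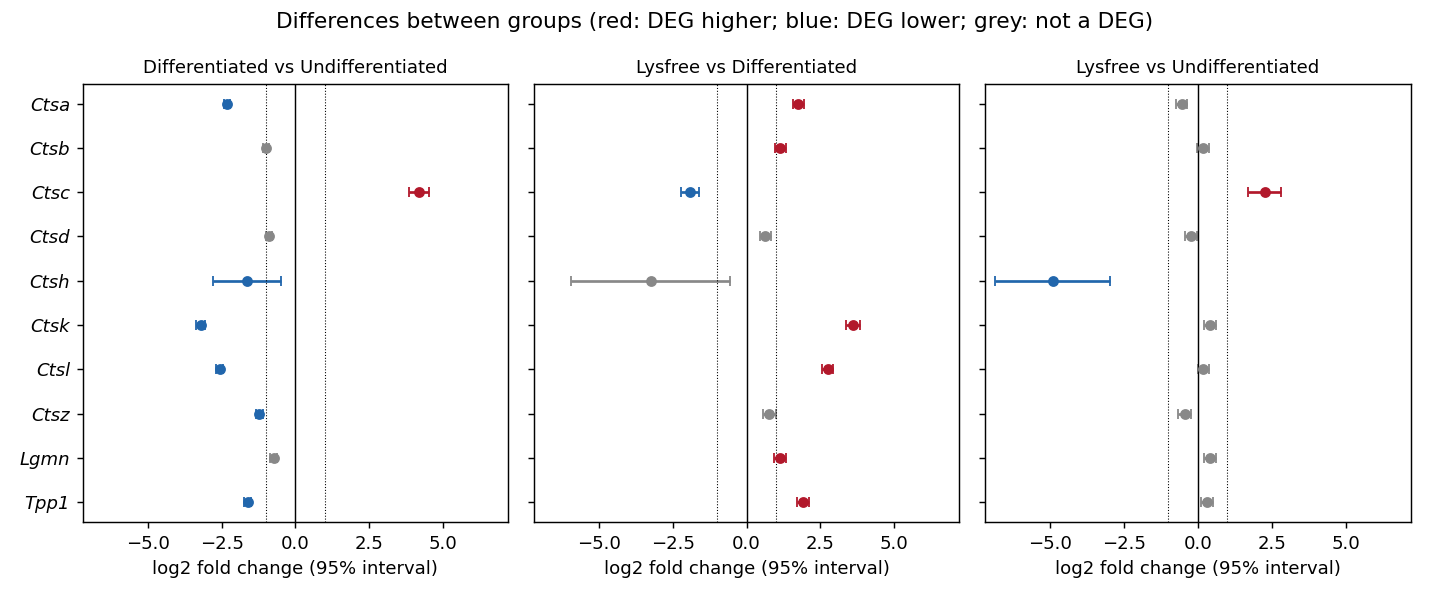
Log2 fold change (horizontal axis) with its 95% interval for each protease gene in the 3 comparisons; red points are DEGs higher, blue points DEGs lower and grey points no DEGs, and dotted lines mark a 2-fold change. Ctsk moves furthest of the abundant genes, from -3.20 in Differentiated vs Undifferentiated to 3.60 in Lysfree vs Differentiated, and the interval of Ctsh is wide.

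Added over the 10 genes, the protease level was 912 ± 19.5 FPKM in Undifferentiated, 348 ± 9.80 in Differentiated and 871 ± 31.97 in Lysfree cells (mean ± SD, n = 3). The Undifferentiated sum was 2.62 times and the Lysfree sum 2.51 times the Differentiated one, and the Lysfree sum was 889 without Lysfree 1. The make-up of the sum differed as well. Ctsd contributed 23.8% ± 0.407 of it in Undifferentiated, 34.4% ± 0.818 in Differentiated and 20.3% ± 1.42 in Lysfree cells. Ctsk contributed 8.96% ± 0.319, 2.61% ± 0.312 and 12.1% ± 0.691, and Ctsl 13.4% ± 0.461, 6.05% ± 0.212 and 15.4% ± 0.981, in the same order. In Undifferentiated cells the order of levels was Ctsd, Ctsa, Ctsb, Ctsl, Ctsz, Ctsk, Tpp1, Lgmn, Ctsc and Ctsh, in which the libraries of Ctsb and Ctsl and those of Ctsc and Ctsh overlapped. In Differentiated cells it was Ctsd, Ctsb, Ctsz, Lgmn, Ctsa, Ctsl, Tpp1, Ctsk, Ctsc and Ctsh, with an overlap between Ctsl and Tpp1. In Lysfree cells it was Ctsd, Ctsb, Ctsl, Ctsk, Ctsa, Tpp1, Ctsz, Lgmn, Ctsc and Ctsh, and here Ctsd overlapped Ctsb, Ctsb overlapped Ctsl, Ctsk overlapped Ctsa, Tpp1 overlapped Ctsz and Ctsz overlapped Lgmn. Among all 54532 genes Ctsd ranked 195, 450 and 215 by mean FPKM in Undifferentiated, Differentiated and Lysfree cells, whereas Ctsk went from rank 557 to 5342 and back to 409.

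**Figure D3:**
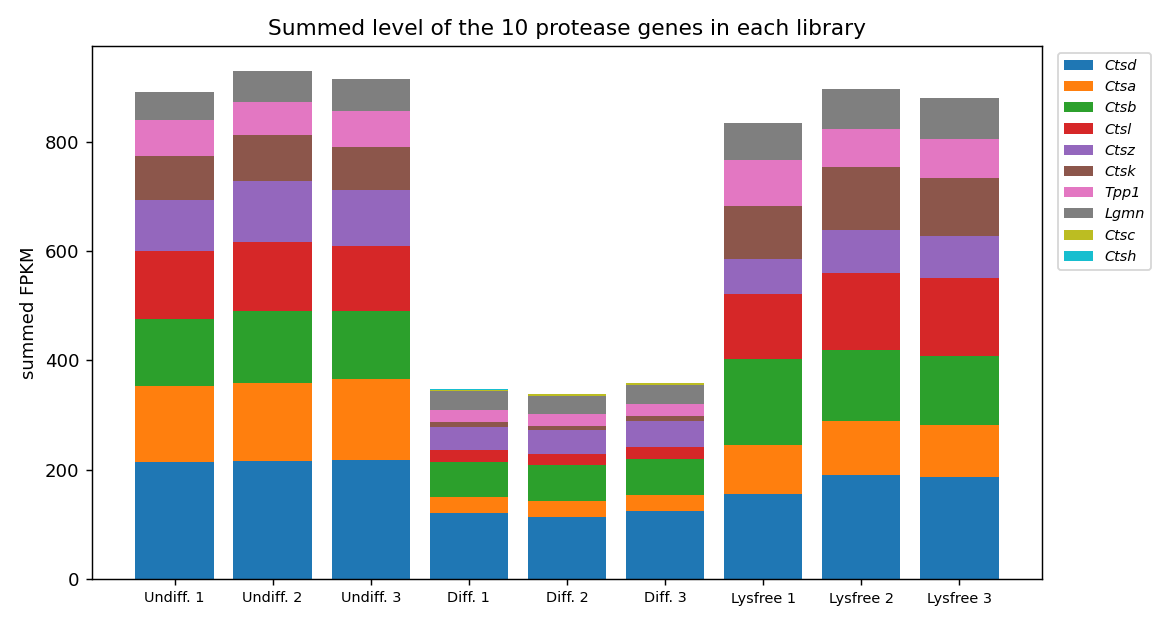
Stacked bars of the FPKM of the 10 protease genes (vertical axis, summed FPKM from 0) in each of the 9 libraries, with the genes in the order of their Undifferentiated mean. Differentiated libraries reach 338 to 358 FPKM, Lysfree libraries 835 to 897 and Undifferentiated libraries 891 to 929.

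For each protease gene the gene with the most similar profile over the 9 libraries was sought among the 9391 genes that averaged 10 or more CPM, a count corrected for library size, as the smallest root mean square difference of centred log2 CPM. For Ctsk this was Renbp (0.108), for Ctsl Myo1e (0.0834), for Tpp1 Cyp1b1 (0.087), for Ctsb Herpud2 (0.054), for Ctsd Zdhhc8 (0.054), for Ctsz Agrn (0.0888) and for Lgmn Cuta (0.0667). Ctsc and Ctsh had no close match, their nearest being Atp2a3 (0.315) and Sema5a (0.36). No protease gene was the nearest gene of another. The closest pair by rank was Ctsl as the gene ranked 22 for Ctsk (0.372). The groups form separate clusters, so these values describe likeness in group means and spread, and the nearest gene was unchanged for 7 of the 10 without Lysfree 1 and for 4 of the 10 on log2(FPKM + 1).

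Other peptidases of the lysosome, a list of 11 genes, split into those that followed the same course and those that stayed low. In Differentiated vs Undifferentiated cells 6 of the 7 tested were DEGs lower (Dpp7, Scpep1, Prcp, Ctsf, Ctso, Cpq), against 11.4% of all genes tested. The serine carboxypeptidase gene Scpep1 was at 283 ± 4.45 FPKM in Undifferentiated, 73.7 ± 5.77 in Differentiated and 356 ± 35.2 in Lysfree, above every one of the 10 genes in mean level in Undifferentiated and Lysfree cells. It was a DEG higher in Lysfree vs Differentiated cells (log2 fold change 2.34, adjusted p = 2.4e-14), as were the dipeptidyl peptidase gene Dpp7 (log2 fold change 2.86, adjusted p = 6.36e-14) and the prolylcarboxypeptidase gene Prcp (log2 fold change 1.70, adjusted p = 1.18e-08). Dpp7 was at 47.1 ± 3.37 FPKM in Undifferentiated, 6.06 ± 0.147 in Differentiated and 42.2 ± 6.82 in Lysfree, and Prcp at 2.12 ± 0.0619 FPKM in Undifferentiated, 1.03 ± 0.166 in Differentiated and 3.21 ± 0.201 in Lysfree. By contrast, the cysteine cathepsin genes Ctsf and Ctso and the carboxypeptidase gene Cpq were DEGs lower in Lysfree vs Undifferentiated cells too (-3.31, -1.19 and -1.82). Cpq was at 10.97 ± 0.282 FPKM in Undifferentiated, 3.00 ± 0.207 in Differentiated and 3.00 ± 0.0913 in Lysfree, Ctso at 7.12 ± 0.155 FPKM in Undifferentiated, 3.49 ± 0.136 in Differentiated and 3.02 ± 0.475 in Lysfree and Ctsf at 3.84 ± 0.206 FPKM in Undifferentiated, 0.885 ± 0.321 in Differentiated and 0.371 ± 0.135 in Lysfree. Of these last genes Ctsf alone passed the test between Lysfree and Differentiated cells (log2 fold change -1.18, adjusted p = 0.0166), but was no DEG once Differentiated 3 or Lysfree 3 was left out. Ctss, Ctse and Ctsg, which mark immune or epithelial cells, had 0 counts in every library, Napsa at most 1 and Ctsw at most 9. The 8 placental cathepsin genes had 0 counts in every library.

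Of 6 genes for cathepsin inhibitors, the secreted cystatin C gene Cst3 and the cytosolic stefin B gene Cstb were abundant. Cst3 was at 739 ± 86.9 FPKM in Undifferentiated, 137 ± 5.84 in Differentiated and 143 ± 20.8 in Lysfree. It fell in Differentiated cells (log2 fold change -2.46, adjusted p below what the software can represent) and was also low in Lysfree cells (-2.33 against Undifferentiated), with no difference passing the test between Lysfree and Differentiated (log2 fold change 0.13, adjusted p = 0.38). Cstb was at 227 ± 18.7 FPKM in Undifferentiated, 137 ± 10.3 in Differentiated and 416 ± 106 in Lysfree, and was a DEG higher in Lysfree vs Differentiated cells (log2 fold change 1.67, adjusted p = 2.94e-09). In Lysfree cells the protease sum stood near its Undifferentiated level beside a Cst3 level near that of Differentiated cells. Ctla2a was at 1.15 ± 0.0951 FPKM in Undifferentiated, 2.07 ± 0.359 in Differentiated and 1.14 ± 0.655 in Lysfree and was no DEG in any comparison of all libraries. Without Lysfree 1 the list held 1 DEG higher in Lysfree vs Undifferentiated and 1 lower in Lysfree vs Differentiated cells, against 0 of each with it. The other DEG lower in Differentiated vs Undifferentiated was Ctla2b, with 3 to 8 counts in Undifferentiated and 0 in Differentiated libraries, while Cst6 and Cst7 had at most 3 counts.

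Genes for the sorting of these enzymes were mixed in Differentiated vs Undifferentiated cells, with 4 of 17 DEGs lower (Gnptg, Nagpa, Gga2, Igf2r) and Sort1 higher (median -0.16). Over all genes tested 11.4% were DEGs lower there and 10.4% higher. In Lysfree vs Differentiated 5 rose (Gnptg, Nagpa, Gga2, Vps26a, Vps35) and Sort1 fell as DEGs (median 0.36), beside 8.14% and 10.5% of all genes. Igf2r, for the cation-independent mannose 6-phosphate receptor that carries these enzymes, was at 52.5 ± 4.65 FPKM in Undifferentiated, 20.8 ± 1.38 in Differentiated and 37.8 ± 1.13 in Lysfree, and its difference between Lysfree and Differentiated cells was 0.93 with an adjusted p of 1.42e-08. The other such receptor gene, M6pr, did not follow it, at 36.6 ± 0.477 FPKM in Undifferentiated, 44.9 ± 0.941 in Differentiated and 45.4 ± 1.17 in Lysfree. M6pr rose slightly in Differentiated cells (log2 fold change 0.27, adjusted p = 5.48e-06). Its difference between Lysfree and Differentiated cells did not pass the test (log2 fold change 0.08, adjusted p = 0.497). Gnptg, a subunit of the enzyme that adds the mannose 6-phosphate tag, fell in Differentiated cells (-1.79) and was higher in Lysfree than in Differentiated cells (1.73), as was Nagpa, which uncovers that tag (1.70). The adaptor gene Gga2 fell in Differentiated cells (-1.43). Sort1, for the sorting receptor sortilin, went the other way, at 3.79 ± 0.217 FPKM in Undifferentiated, 24.8 ± 0.876 in Differentiated and 0.858 ± 0.0641 in Lysfree, with log2 fold changes of 2.68, -4.79 and -2.10 in Differentiated vs Undifferentiated, Lysfree vs Differentiated and Lysfree vs Undifferentiated. The only other DEG against Undifferentiated in Lysfree cells was the retromer gene Vps26a (1.12), and without Lysfree 1 the count of DEGs higher there was 0. Over all genes tested 5.52% were DEGs higher in that comparison and 8.76% lower. Gnptg overlaps Unkl over 1113 exonic bases on the opposite strand.

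A list of 32 genes held glycosidases, lipases and sulfatases, and with them other enzymes of the lysosome (Dnase2a, Acp2, Hgsnat, Aga, Ppt1, Ppt2). Of the 32, 21 were DEGs lower and 1 higher in Differentiated vs Undifferentiated cells (median -1.41), beside 11.4% and 10.4% of all genes tested. In Lysfree vs Differentiated 13 were DEGs higher and 2 lower (median 0.71), and in Lysfree vs Undifferentiated 1 was higher and 8 lower (median -0.54). Of all genes 8.14% were DEGs higher and 10.5% lower in the former comparison, and 5.52% and 8.76% in the latter. Gla, for alpha-galactosidase, rose above both other groups in Lysfree cells, at 16.7 ± 0.664 FPKM in Undifferentiated, 6.33 ± 0.283 in Differentiated and 58.8 ± 2.68 in Lysfree (3.28 against Differentiated, 1.86 against Undifferentiated). Gaa, for acid alpha-glucosidase, fell in Differentiated (-2.79) and remained lower than Undifferentiated in Lysfree cells (-1.49). Manba, for beta-mannosidase, was lowest in Lysfree cells (-1.44 against Differentiated, -1.69 against Undifferentiated), and Ppt2, for a palmitoyl-thioesterase, was the only DEG higher in Differentiated vs Undifferentiated cells (1.23) and was lower again in Lysfree (-1.40).

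The proton pump, on which the proteases depend for their acid milieu, changed less in Differentiated cells. Of its 18 genes 17 were tested, and 2 were DEGs lower in Differentiated vs Undifferentiated, Atp6ap2 (-1.19) and Tcirg1 (-1.19), with a median of -0.29. That is a like share to the 11.4% of all genes tested. In Lysfree vs Differentiated 7 were DEGs higher (median 0.93), against 8.14% of all genes, with the largest rises in Atp6ap2 (1.81) and Atp6v1g1 (1.62). In Lysfree vs Undifferentiated 13 rose and 2 fell by the adjusted p alone (median 0.62), against 35.1% of all genes in either direction. Of these Atp6v1c1 was a DEG (1.26), a like share to the 5.52% of all genes. The count of DEGs higher was 2 without Undifferentiated 1, Lysfree 2 or Lysfree 3. Among 20 genes of the lysosomal membrane, a list that also holds the soluble protein gene Npc2, 11 were DEGs lower in Differentiated vs Undifferentiated and Cd68 higher. The median was -1.04, and of all genes 11.4% were lower and 10.4% higher. In Lysfree vs Differentiated 10 rose and Cln3, which overlaps Apobr over 442 exonic bases, fell as DEGs (median 0.97), beside 8.14% and 10.5%. Without Differentiated 1 the call of Cln3 was lost, and without Undifferentiated 1, Undifferentiated 3 or Differentiated 1 the count of DEGs higher in Differentiated vs Undifferentiated cells was 2. The structural glycoprotein gene Lamp1 was at 386 ± 7.39 FPKM in Undifferentiated, 150.1 ± 4.27 in Differentiated and 459 ± 45.0 in Lysfree, and Lamp2 at 113 ± 2.36 FPKM in Undifferentiated, 28.4 ± 1.10 in Differentiated and 97.6 ± 27.6 in Lysfree. Both fell in Differentiated cells (-1.39 and -2.02) and were higher in Lysfree than in Differentiated cells (1.68 and 1.85). The transporter gene Abca2 fell in Differentiated (-1.74) and was also a DEG lower in Lysfree vs Undifferentiated cells (-1.35), and Mfsd8 was a DEG higher in the latter (1.04). The count of membrane DEGs higher in that comparison, 2, was 1 without Undifferentiated 1, Undifferentiated 2 or Lysfree 1, and that of DEGs lower was 2 without Undifferentiated 2. Over all genes tested 5.52% were DEGs higher there and 8.76% lower. Lamp1, Glb1 and Mfsd8 also share exonic bases with neighbours that had counts in every library (Grtp1, Tmppe and Gm2011). Pqlc2, which exports lysine and arginine from the lysosome, was no DEG, at 2.99 ± 0.414 FPKM in Undifferentiated, 2.07 ± 0.0740 in Differentiated and 3.51 ± 0.580 in Lysfree (log2 fold change 0.83, adjusted p = 0.000242 in Lysfree vs Differentiated).

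Of 5 genes for transcription factors of the lysosome, the detected ones changed by less than 2-fold. Tfeb was at 1.65 ± 0.146 FPKM in Undifferentiated, 2.81 ± 0.188 in Differentiated and 1.45 ± 0.140 in Lysfree, and went against most protease genes, with an adjusted p passed in Differentiated vs Undifferentiated (log2 fold change 0.74, adjusted p = 1.73e-09) and in Lysfree vs Differentiated (log2 fold change -0.89, adjusted p = 3.33e-05). Tfe3 was at 8.82 ± 0.340 FPKM in Undifferentiated, 8.26 ± 0.241 in Differentiated and 12.2 ± 0.954 in Lysfree, higher in Lysfree cells than in Differentiated (log2 fold change 0.62, adjusted p = 1.51e-05) and Undifferentiated cells (log2 fold change 0.51, adjusted p = 0.000122). Mitf was at 2.14 ± 0.136 FPKM in Undifferentiated, 1.51 ± 0.104 in Differentiated and 1.86 ± 0.325 in Lysfree and fell in Differentiated cells (log2 fold change -0.53, adjusted p = 5.74e-05). Zkscan3, known as a repressor of lysosomal genes, was at 8.50 ± 0.843 FPKM in Undifferentiated, 12.1 ± 0.426 in Differentiated and 7.09 ± 0.0372 in Lysfree, higher in Differentiated than in Undifferentiated cells (log2 fold change 0.48, adjusted p = 1.22e-13) and lower in Lysfree than in Differentiated cells (log2 fold change -0.71, adjusted p = 2.03e-06). Tfec had at most 2 counts. These are transcript levels, and the activity of the factors was not measured in these libraries.

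**Figure D4:**
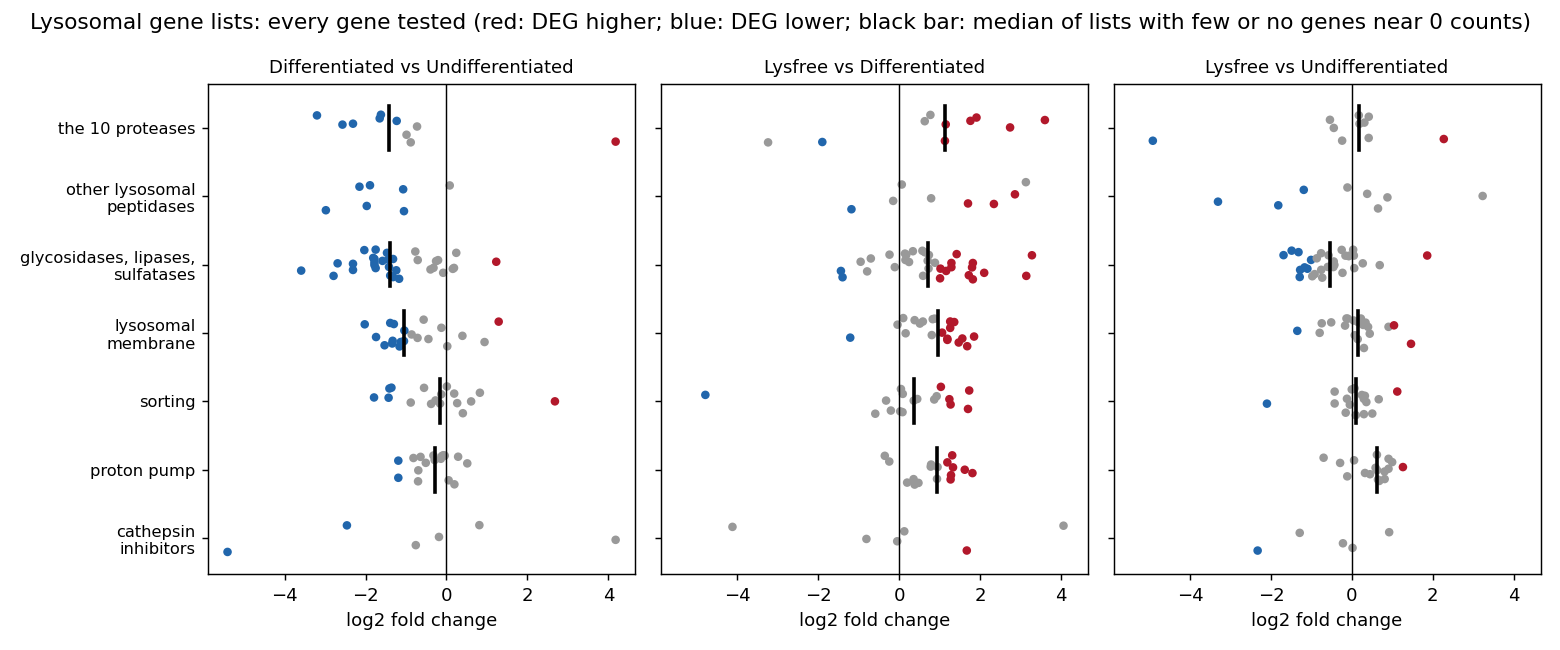
Log2 fold change (horizontal axis) of every gene tested in 7 lists of lysosomal genes (rows) in the 3 comparisons; each point is a gene, red for a DEG higher, blue for a DEG lower, grey otherwise, and black bars are medians, left out for the lists with many genes near 0 counts. The 10 proteases have medians of -1.42, 1.14 and 0.18 from left to right, and the proton pump -0.29, 0.93 and 0.62.

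The labelled cells were checked against markers. Adipocyte markers (7 genes) summed to 6468 to 6781 FPKM in Differentiated libraries, 298 to 378 in Undifferentiated and 234 to 311 in Lysfree. Most of the Lysfree sum was Lpl, which was above Undifferentiated there (log2 fold change 0.41, adjusted p = 0.00244). In that comparison Adipoq (-3.74), Cidec (-1.56) and Cebpa (-1.43) were DEGs lower, against 8.76% of all genes tested. Plin1 and Pparg fell by less than 2-fold and Fabp4 did not pass the test (adjusted p = 0.231). Fibroblast or preadipocyte markers (7 genes) summed to 4812 to 5200 FPKM in Undifferentiated, 980 to 996 in Differentiated and 1403 to 1449 in Lysfree, most of it Col1a1, Col1a2 and Col3a1. In Differentiated vs Undifferentiated cells all 7 were DEGs lower (median -2.5), against 11.4% of all genes tested. In Lysfree vs Differentiated cells 4 were DEGs higher (Col1a2, Pdgfrb, Dlk1, Thy1) and 0 lower (median 1.05), against 8.14% and 10.5%. In Lysfree vs Undifferentiated cells 5 of the 7 were DEGs lower, against 8.76%. There Pdgfrb fell by less than 2-fold (log2 fold change -0.59, adjusted p = 4.71e-06) and Thy1 rose by less than 2-fold (log2 fold change 0.39, adjusted p = 0.00177). Because cathepsins are abundant in macrophages, 9 macrophage markers were read as well. Ptprc, Adgre1, Itgam, Tyrobp and Cd52 had at most 3 counts in every library, and the whole list summed to 17.5 to 21.9 FPKM in Undifferentiated, 6.16 to 6.27 in Differentiated and 8.68 to 9.85 in Lysfree libraries, most of it Lyz2 and Cd14. Lyz2, for a lysozyme, was at 13.3 ± 1.53 FPKM in Undifferentiated, 0.699 ± 0.234 in Differentiated and 3.49 ± 0.169 in Lysfree and was a DEG lower in Differentiated vs Undifferentiated (log2 fold change -4.24, adjusted p = 4.57e-115), higher in Lysfree vs Differentiated (log2 fold change 2.36, adjusted p = 3.35e-07) and lower in Lysfree vs Undifferentiated cells (log2 fold change -1.88, adjusted p = 4.48e-11). Csf1r, a receptor of macrophages with 10 to 13 counts in Undifferentiated, 1 to 4 in Differentiated and 0 to 1 in Lysfree libraries, was a DEG lower in Differentiated (log2 fold change -1.83, adjusted p = 0.0195) and in Lysfree cells (adjusted p = 0.000393) against Undifferentiated. Cd14 and Fcer1g passed the test in none of the 3 comparisons, with adjusted p of 0.25 or more, and the part of such cells in the protease values was not tested. In bulk RNA, fewer cells of a type and less RNA per cell cannot be told apart.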

How the data were processed

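RNA enriched for poly A was sequenced from 3T3-L1 cells in 9 libraries, n = 3 for each of Undifferentiated, Differentiated and Lysfree, grouped by the sample labels. The labels do not say whether replicates were separate cultures, so p values rest on the spread between these libraries, which may be technical. In Differentiated vs Undifferentiated that spread was pooled over genes and is not each gene's own. The authors mapped reads to mm10 with HISAT2 2.0.5 and counted them with featureCounts 1.5.0-p3, as named in the submitters' processing notes, and deposited raw counts per gene. The deposited FPKM of the same genes were normalised by the authors to gene length and library total. The strand setting and annotation release are not given in the sources used here, and coordinates are those of the tables, which for the 10 genes equal GENCODE vM21 on GRCm38.

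Each pair of groups was tested on the counts of its 6 libraries with edgeR 4.0.16 (TMM, glmQLFit and glmQLFTest, Benjamini-Hochberg over every gene with at least 1 count in those libraries) in R 4.3.3. The study's own thresholds defined DEGs. In Differentiated vs Undifferentiated the estimated prior degrees of freedom were infinite, so gene-wise spread was pooled fully there, and 286 genes had an adjusted p too small to hold. The size of p there depended on the fit. For Ctsb the adjusted p was 5.4e-87, against 5.16e-10 with edgeR's expression filter and 4.49e-06 with limma on log2(FPKM + 1). Leaving out Lysfree 1 lowered the adjusted p of most protease genes in the comparisons with Lysfree. For Ctsd in Lysfree vs Differentiated it went from 8.08e-06 to 7.72e-68. Such p values are therefore not on the scale of those of the main fit. An exact permutation test of 3 against 3 cannot give a p below 0.1 and was not used. Standard errors are the log2 fold change over the square root of F. Groups with at most 3 counts in every library were treated as at the floor. Bounds compare the mean of the other group with 3 counts set in each library of the floor group. The code was tested on simulated data. Sequences are from RefSeq on GRCm38.p6.

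The 10 genes and the 13 lists were chosen with earlier results of these data known. Named genes were all 10, the detected inhibitors, other peptidases and transcription factors, the 2 largest rises and 2 largest falls among DEGs of at least 10 CPM in each other list and comparison, and the nearest gene of each. Neu1, Glb1, Pqlc2, Ctla2b, Igf2r, M6pr, Vps35, Cd68, Cln3, the cell type markers given singly, the neighbours and genes named as undetected were added after their values were seen. Alternatives were DESeq2 1.42.0, other scalings and filters, all 9 libraries in a single fit, a replicate block, a robust prior, limma 3.58.1 on log2(FPKM + 1) and log2(FPKM + 0.1), other thresholds and leaving out each library. The values of some genes that the rule for named genes picks are not reported here.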

Additional observations from a re-analysis of the deposited data

How the results depend on the processing

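No log2 fold change of a protease gene changed sign under any alternative that gave a value. Counts in Differentiated vs Undifferentiated, and the 6 genes higher in Lysfree vs Differentiated, stayed within 1.5 times of the values given under every alternative run. In Lysfree vs Undifferentiated the count of DEGs lower was 0 with edgeR's expression filter, with at least 10 counts in every library, both of which leave Ctsh untested, and with limma on log2(FPKM + 1), where the count of DEGs higher was 0 as well. With no fold change threshold, 4 genes were higher (Ctsc, Ctsk, Lgmn, Tpp1) and 3 lower (Ctsa, Ctsh, Ctsz). In Lysfree vs Differentiated the count of DEGs lower was 2 (Ctsc and Ctsh) with all 9 libraries in a single fit and with a robust prior, and 1 to 2 when each library was left out, the 2 arising without Lysfree 2, the only Lysfree library with a count of Ctsh. Its cause was not tested. Scaling by library sizes alone moved the median of expressed genes in Lysfree vs Differentiated from 0.03 to 0.11, and relative to that shift no direction of a protease gene changed. Depth limits Ctsh, with at most 19 counts in a library, and Ctsc in Undifferentiated libraries, with 18 to 28 counts.

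Same-numbered libraries of different groups had correlations of deviations between -0.08 and 0.12, and differently numbered ones between -0.16 and 0.11. With 3 libraries per group these values cannot tell whether same-numbered libraries were handled together. With the number as a replicate block, counts were 1 higher and 6 lower in Differentiated vs Undifferentiated, 1 higher and 1 lower in Lysfree vs Undifferentiated and 6 higher and 1 lower in Lysfree vs Differentiated, and Ctsd in Lysfree vs Undifferentiated had an adjusted p of 0.0392.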
